A study of Mus musculus with 12 samples.

Results

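Syndecans and glypicans are the families of membrane proteoglycans that carry most of the heparan sulfate on the cell surface, and their 10 mouse genes, Sdc1 to Sdc4 and Gpc1 to Gpc6, were followed here in sorted tumor cells of a mouse glioma model. Each gene was taken by its symbol, and each was measured by 1 probe set paired with that symbol alone, so the rule of keeping the brightest probe set removed none. The 10 genes stand among 19938 genes measured. The comparison addresses how the heparan sulfate core proteins differ between tumors with high and low activity of EGFRvIII, a truncated epidermal growth factor receptor that signals without ligand.

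Both groups were made from neural progenitor cells of the subventricular zone that lack Ink4a/Arf and were transduced with human EGFRvIII, and both lines came from one parental pool. Before the injections studied here, each line had formed intracranial tumors in syngeneic mice, from which it was regrown as tumorspheres. The pEGFR-Hi group held 6 FVB mice injected intracranially with the line of high EGFRvIII phosphorylation, and the pEGFR-Lo group held 6 FVB mice injected with the line of low phosphorylation. Each mouse received 2 µl at 200000 cells per µl. The age and sex of the mice are not given in the sources used here. Tumor cells carried the fluorescent tag ZsGreen, and they were sorted from papain-dissociated brains without cerebellum and olfactory bulbs, after a Percoll step that took out myelin and red blood cells. Dead cells were excluded with DAPI. RNA of each mouse was hybridized to 1 Affymetrix Mouse Gene 1.0 ST array. With 1 tumor line per group, the p-values set the difference between the lines against the spread of mice within a line. Other lines were not sampled. Brains were taken around the median survival of each group, which was shorter for pEGFR-Hi, so tumor line and time since injection cannot be told apart.

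A syndecan spans the membrane and ends in a short cytoplasmic tail that binds scaffold proteins, while a glypican is held to the outer face of the membrane by a lipid anchor. Heparan sulfate chains on both kinds of core protein bind growth factors, morphogens and matrix proteins, present them to their receptors and store them at the surface. In the brain these proteoglycans are known for roles in axon growth, synapse formation and glial signaling, and in gliomas for binding of fibroblast growth factors and pleiotrophin.

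The promoters of Sdc3, Gpc4 and Sdc1 are shown because the first and second genes had the largest fitted decreases among the members while Sdc1 differed in the other direction. Each is the 250 bases before the annotated start of the gene in RefSeq on GRCm38.p6, written 5′ to 3′ on the strand of the gene, with capitals marking the GC box GGGCGG or its reverse complement. The Sdc3 promoter lies at chr4:130792287-130792536 on the plus strand, the Gpc4 promoter at chrX:52164924-52165173 on the minus strand and the Sdc1 promoter at chr12:8771146-8771395 on the plus strand.
Sdc3: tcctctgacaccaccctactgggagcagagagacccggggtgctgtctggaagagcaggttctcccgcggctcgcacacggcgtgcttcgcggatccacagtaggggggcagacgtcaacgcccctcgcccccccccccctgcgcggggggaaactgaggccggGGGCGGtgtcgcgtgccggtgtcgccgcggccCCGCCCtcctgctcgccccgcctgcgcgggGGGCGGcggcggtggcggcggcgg
Gpc4: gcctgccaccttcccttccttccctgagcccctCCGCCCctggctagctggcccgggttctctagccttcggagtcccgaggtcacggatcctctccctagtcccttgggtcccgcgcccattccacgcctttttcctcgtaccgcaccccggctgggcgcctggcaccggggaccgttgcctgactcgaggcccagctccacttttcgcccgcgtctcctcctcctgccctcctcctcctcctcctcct
Sdc1: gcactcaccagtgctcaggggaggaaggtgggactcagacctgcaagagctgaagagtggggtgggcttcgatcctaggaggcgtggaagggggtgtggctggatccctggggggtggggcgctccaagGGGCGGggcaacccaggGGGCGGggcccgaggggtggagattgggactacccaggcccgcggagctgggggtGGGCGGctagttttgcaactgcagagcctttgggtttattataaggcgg
The Sdc3 window held 3 GC boxes and 32 CpG dinucleotides and had a GC content of 76.4%. The Gpc4 window held 1 GC box and 18 CpG dinucleotides at 68.4% GC, and the Sdc1 window held 3 GC boxes and 10 CpG dinucleotides at 66.0% GC. The GC box was searched on both strands and occurred in 32.7% of 32851 mouse promoters of the same length, whose median GC content was 52.4% and whose median CpG count was 6. All 7 of the 10 members that matched the promoter table, which were Sdc1, Sdc3, Sdc4, Gpc2, Gpc3, Gpc4 and Gpc5, held at least 1 GC box. The letters are a description of the windows, and the arrays hold no measurement of factor binding there.

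The authors deposited log2 values after RMA, which corrects background, gives every array the same distribution and summarizes each probe set. These values therefore do not show whether a cell held more or less RNA in total, and the level of one gene cannot be set against that of another. Array medians lay between 4.81 and 4.88. Background was taken as 4.12, the level below which 95% of the means of 1015 olfactory receptor genes lay. A gene was called higher or lower where limma gave a Benjamini-Hochberg adjusted p under 0.01 over all genes and the difference was at least 2-fold. Pairs of arrays correlated at 0.991 to 0.994 for pEGFR-Hi and at 0.985 to 0.994 for pEGFR-Lo, and at 0.944 to 0.959 where the arrays were of different groups. Of 6 neural progenitor markers, Sox2, Nes, Olig2, Sox9 and Fabp7 were above background in both groups, and Prom1 was above it in pEGFR-Hi and below it in pEGFR-Lo. Of 8 microglia and macrophage markers, Cx3cr1, P2ry12, Tmem119 and Cd68 were above background in both groups and Ptprc, Itgam, Aif1 and Csf1r below it in both. Of 7 endothelial markers, 3 were above background in pEGFR-Hi and 2 in pEGFR-Lo, Cldn5 and Flt1 in both, with Pecam1 and Cdh5 below it in both. The mean of 10 interferon-stimulated genes was 8.07 to 9.33 in pEGFR-Hi arrays, against 5.33 in pEGFR-Lo replicate 3, 5.29 in pEGFR-Lo replicate 6 and 6.55 to 7.15 in the other pEGFR-Lo arrays, so results were also computed without replicates 3 and 6.

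Of the 10 members, 3 were lower in pEGFR-Hi cells (Sdc3, Gpc4 and Sdc2) and 0 were higher. Over all genes tested, 9.05% were called, 5.06% lower and 3.99% higher. The members were chosen with earlier results of these data known, so their counts beside all genes are a description. SAM, the method of the study, also called 3 members lower and 0 higher. With no fold limit, the same adjusted p was passed by 6 members that were lower and 1, Sdc1, that was higher, beside 27.6% of all genes, 12.9% lower and 14.7% higher. At an unadjusted p under 0.05, 6 members were lower and 2, Sdc1 and Gpc6, higher, where 42.8% of all genes passed, 19.8% lower and 23.0% higher. The pEGFR-Hi arrays lay wholly below the pEGFR-Lo arrays for 5 members and wholly above them for 0, where 23.3% of all genes did not overlap, 11.1% wholly below and 12.2% wholly above. The median log2 difference, pEGFR-Hi minus pEGFR-Lo, was −0.54 over the 10 members, −0.47 over the 4 syndecans and −0.54 over the 6 glypicans, against 0.01 over all genes.

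**Figure D1:**
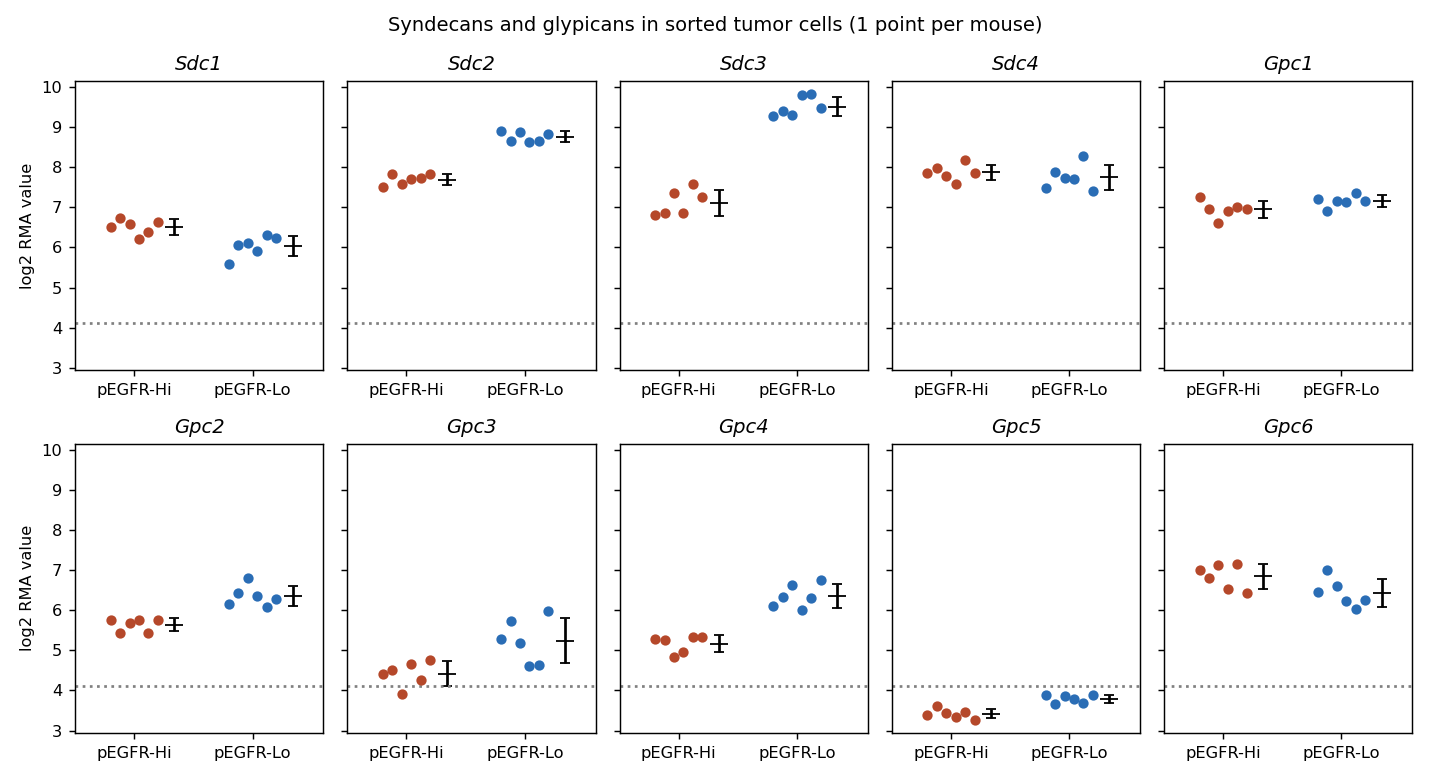
Log2 RMA values (vertical axis) of the 10 syndecans and glypicans in sorted cells of pEGFR-Hi tumors in red and of pEGFR-Lo tumors in blue, with 1 point per mouse, a bar for the mean ± SD beside each group of 6 and a dotted line at background. The groups are separate for Sdc2, Sdc3, Gpc2, Gpc4 and Gpc5, and all 12 arrays of Gpc5 lie below background.

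Among the syndecans, the one best known from neurons, Sdc3, was lowest in pEGFR-Hi relative to pEGFR-Lo. Sdc3, also called N-syndecan, is a receptor for pleiotrophin on growing axons. Its log2 values were 6.80 to 7.58 in pEGFR-Hi cells (median 7.06), against 9.27 to 9.82 in pEGFR-Lo cells (median 9.44). The highest pEGFR-Hi array lay below the lowest pEGFR-Lo array by more than the range of either group. The means were 7.12 ± 0.33 in pEGFR-Hi and 9.51 ± 0.24 in pEGFR-Lo (SD, n = 6 each), a difference of −2.40 (SE 0.15, 95% interval −2.71 to −2.08), 5.26-fold lower in pEGFR-Hi (limma adjusted p = 2.67e-09). In sorted bulk samples, fewer cells that express a gene and less RNA per cell cannot be told apart.

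Sdc2, which promotes the maturation of dendritic spines in cultured rodent neurons, also fell. Its values were 7.50 to 7.82 in pEGFR-Hi cells (median 7.72) and 8.63 to 8.91 in pEGFR-Lo cells (median 8.75). The groups did not overlap, and each spanned a narrow range. The means of 7.69 ± 0.13 in pEGFR-Hi and 8.76 ± 0.13 in pEGFR-Lo differed by −1.07 (SE 0.09, 95% interval −1.25 to −0.89), 2.1-fold lower in pEGFR-Hi (limma adjusted p = 5.15e-08). The interval includes differences smaller than the 2-fold limit.

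Sdc1, the syndecan of epithelia and plasma cells, moved in the other direction by less than the fold limit. Its values were 6.20 to 6.73 in pEGFR-Hi cells (median 6.54) and 5.60 to 6.30 in pEGFR-Lo cells (median 6.08), and the groups overlapped. The difference was 0.47 (SE 0.12, 95% interval 0.22 to 0.73), 1.39-fold higher in pEGFR-Hi (limma adjusted p = 0.00526). With each of the 12 arrays left out in turn the adjusted p was 0.00248 to 0.0149 and stayed under 0.01 in 7 fits. Sdc4, which joins integrins at focal adhesions and binds protein kinase C alpha, had values of 7.59 to 8.17 in pEGFR-Hi cells (median 7.86) and 7.41 to 8.27 in pEGFR-Lo cells (median 7.72). The pEGFR-Hi arrays of Sdc4 lay inside the range of the pEGFR-Lo arrays. A difference of 0.13 was fitted, with a 95% interval of −0.16 to 0.41 (limma adjusted p = 0.533), so a change of 2-fold lies outside the interval in both directions.

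Gpc4 was the glypican called lower. Gpc4 and Gpc6 are known as proteins that rodent astrocytes release and that recruit AMPA receptors to young synapses. Gpc4 had log2 values of 4.84 to 5.34 in pEGFR-Hi cells (median 5.27), against 6.01 to 6.76 in pEGFR-Lo cells (median 6.31). Every pEGFR-Hi array lay below every pEGFR-Lo array, and all 12 were above background. The means of 5.17 ± 0.21 in pEGFR-Hi and 6.36 ± 0.29 in pEGFR-Lo differed by −1.19 (SE 0.13, 95% interval −1.47 to −0.90), 2.28-fold lower in pEGFR-Hi (limma adjusted p = 2.59e-06). As for Sdc2, the interval includes differences smaller than the 2-fold limit.

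Gpc6 was not called. Its values were 6.42 to 7.15 in pEGFR-Hi cells (median 6.90) and 6.02 to 6.99 in pEGFR-Lo cells (median 6.35), with wide overlap. The fitted difference was 0.41 (SE 0.16, 95% interval 0.06 to 0.76), which did not pass after adjustment (limma adjusted p = 0.0617). The difference between the responses of the 2 genes was not tested.

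Gpc2 and Gpc3 passed the adjusted p but not the fold limit. Gpc2, or cerebroglycan, is made by young neurons as they migrate and extend axons. Its values were 5.43 to 5.76 in pEGFR-Hi cells (median 5.72), against 6.09 to 6.81 in pEGFR-Lo cells (median 6.32), without overlap. The difference was −0.71 (SE 0.12, 95% interval −0.96 to −0.47), 1.64-fold lower in pEGFR-Hi (limma adjusted p = 1.18e-04). Gpc3 binds hedgehog ligands and restrains growth in mice, and its loss causes an overgrowth syndrome in humans. It was near background, with values of 3.91 to 4.76 in pEGFR-Hi cells (median 4.47, 5 of 6 arrays above background) and 4.62 to 5.97 in pEGFR-Lo cells (median 5.23). The ranges met, and the pEGFR-Lo arrays of Gpc3 spread most of all members, with an SD of 0.55. The difference was −0.82 (SE 0.22, 95% interval −1.28 to −0.36), 1.76-fold lower in pEGFR-Hi (limma adjusted p = 0.00684). Without pEGFR-Lo replicates 3 and 6 it was −0.65 (adjusted p = 0.0329), and it no longer passed. With each of the 12 arrays left out in turn the adjusted p of Gpc3 was 0.00228 to 0.0185 and stayed under 0.01 in 4 fits.

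Gpc1, a co-receptor for fibroblast growth factors that is abundant in the nervous system, had values of 6.60 to 7.25 in pEGFR-Hi cells (median 6.95) and 6.92 to 7.36 in pEGFR-Lo cells (median 7.17). These ranges overlapped, and the difference of −0.21 (SE 0.10, 95% interval −0.43 to 0.01) did not pass (limma adjusted p = 0.132). Gpc5, a glypican that enhances hedgehog signaling, was not above background on any of the 12 arrays, with values of 3.27 to 3.61 in pEGFR-Hi cells (median 3.41) and 3.66 to 3.88 in pEGFR-Lo cells (median 3.82). The groups of Gpc5 did not overlap, but no fold is given for values below background.

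**Figure D2:**
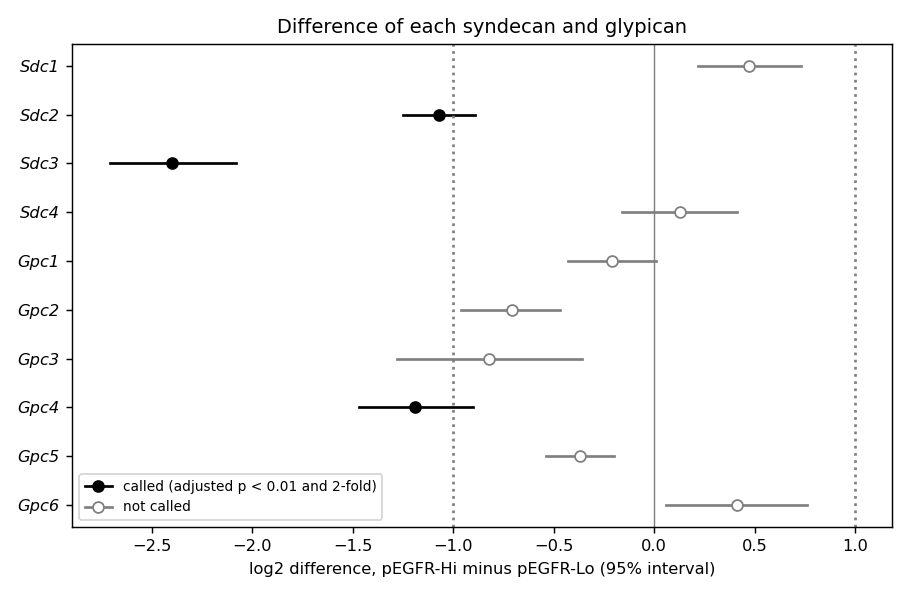
Difference of each syndecan and glypican on the log2 scale, pEGFR-Hi minus pEGFR-Lo (horizontal axis), with its 95% interval from limma over 6 mice in each group; filled points were called and dotted lines mark 2-fold. Sdc3 has the largest decrease at −2.40, and Sdc1, Sdc4 and Gpc6 are the members with positive differences.

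Without pEGFR-Lo replicates 3 and 6 the differences of the called members were −2.46 for Sdc3, −1.02 for Sdc2 and −1.02 for Gpc4, and all 3 stayed called. Marker lists of other brain cells were read on the same arrays. The mean log2 value of 6 astrocyte markers was 6.36 to 6.97 in pEGFR-Hi arrays, against 7.35 to 7.68 in pEGFR-Lo arrays. Of these markers S100b and Slc1a2 were called lower and Gfap higher in pEGFR-Hi. The mean of 6 mature oligodendrocyte markers was at most 4.11 in pEGFR-Hi arrays, against 4.48 to 4.69 in pEGFR-Lo arrays, with Ermn called lower. Of these 6 markers, 2 were above background in pEGFR-Hi, against 3 in pEGFR-Lo, and Mog and Mag were below it in both groups. The mean of 7 mature neuron markers was 4.12 to 4.20 in pEGFR-Hi arrays, against 4.26 to 4.51 in pEGFR-Lo arrays, with 0 called in either direction. By less than the fold limit, Snap25 (−0.82, limma adjusted p = 1.08e-06) and Gad1 (−0.52, adjusted p = 0.00252) were lower in pEGFR-Hi. No marker of this list passed the adjusted p in the other direction. Rbfox3, Gad1 and Syp were above background in both groups, Syt1 in pEGFR-Hi only and Snap25 in pEGFR-Lo only. Slc17a7 and Gad2 were below it in both. The mean of 7 pericyte and fibroblast markers was 4.08 to 4.67 in pEGFR-Hi arrays, against 4.41 to 5.06 in pEGFR-Lo arrays, with Rgs5 called lower. The mean of 8 microglia and macrophage markers was 4.10 to 4.34 in pEGFR-Hi arrays, against 4.14 to 4.49 in pEGFR-Lo arrays, with Cd68 called higher and P2ry12 lower. The part of these cell types in the differences of the members was not tested.

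The arrays also measured the enzymes that build and trim heparan sulfate, the proteases that release the core proteins, their cytoplasmic partners and the ligands their chains bind. In all, 93 of 95 listed genes were measured, of which 14 (15.1%) were lower and 3 (3.23%) higher in pEGFR-Hi, beside 5.06% and 3.99% of all genes. Their median difference was −0.09, against 0.01 over all genes. The lists were chosen with earlier results of these data known. From the same arrays, the paper reports heparan sulfate biosynthesis among the processes enriched in pEGFR-Lo cells. The shares therefore describe the lists and do not test for an excess over all genes.

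**Figure D3:**
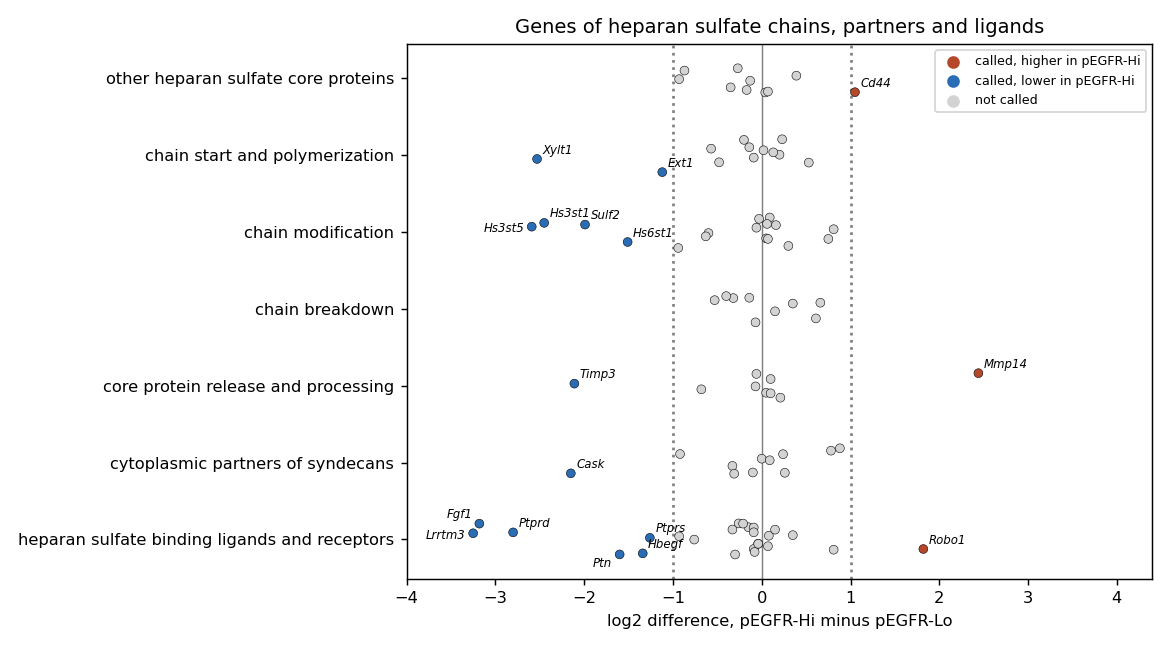
Log2 difference, pEGFR-Hi minus pEGFR-Lo (horizontal axis), of each measured gene of 7 lists around heparan sulfate proteoglycans, with 1 point per gene; colored points were called by limma and dotted lines mark 2-fold. Of 93 genes, 14 are called lower and 3 higher in pEGFR-Hi.

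Chains are started by xylosyltransferases and lengthened by the EXT enzymes. Of 12 genes of chain start and polymerization, which also include other enzymes such as B4galt7 and Fam20b, 2 were called lower and 0 higher. At an unadjusted p under 0.05 in limma 4 were lower and 3 higher, beside 19.8% and 23.0% of all genes. Xylt1, which adds the first sugar to the core protein, averaged 5.75 ± 0.28 in pEGFR-Hi and 8.28 ± 0.23 in pEGFR-Lo, 5.78-fold lower in pEGFR-Hi (limma adjusted p = 6.09e-10). Ext1, a subunit of the chain polymerase, averaged 8.14 ± 0.15 in pEGFR-Hi and 9.26 ± 0.12 in pEGFR-Lo, 2.17-fold lower (adjusted p = 3.97e-08). Its partner Ext2 had a difference of 0.23 and was not called.

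Sulfotransferases and sulfatases then set the pattern of sulfate groups that ligands read. Of 17 genes of chain modification 4 were called lower and 0 higher in pEGFR-Hi, beside 5.06% and 3.99% of all genes. The median difference of the 17 was −0.03. At an unadjusted p under 0.05 in limma 7 were lower and 3 higher, beside 19.8% and 23.0% of all genes. Those higher by less than the fold limit included Ndst2 (0.75, limma adjusted p = 4.47e-06) and Glce (0.81, adjusted p = 0.00132). Hs3st5 and Hs3st1, which add the rare 3-O-sulfate, averaged 3.97 ± 0.23 and 3.99 ± 0.20 in pEGFR-Hi, below background, against 6.56 ± 0.25 and 6.44 ± 0.32 in pEGFR-Lo. Set against the background level they were at least 5.45-fold and at least 5.02-fold lower in pEGFR-Hi (limma adjusted p = 2.29e-10 for Hs3st5 and 1.03e-09 for Hs3st1). Sulf2, which removes 6-O-sulfate outside the cell, averaged 8.86 ± 0.19 in pEGFR-Hi and 10.85 ± 0.08 in pEGFR-Lo, 3.98-fold lower (adjusted p = 1.19e-10). Hs6st1, which adds 6-O-sulfate and was named after its values were seen, averaged 6.63 ± 0.21 in pEGFR-Hi and 8.14 ± 0.19 in pEGFR-Lo, 2.85-fold lower (adjusted p = 2.08e-08). Of 9 genes of lysosomal and extracellular chain breakdown, 0 were called by limma or by SAM, and at an unadjusted p under 0.05 in limma 3 were higher and 3 lower, beside 23.0% and 19.8% of all genes.

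Of 9 genes that release or process core proteins, 1 was higher and 1 lower. Mmp14, a membrane protease that sheds syndecans, averaged 6.89 ± 0.51 in pEGFR-Hi and 4.45 ± 0.18 in pEGFR-Lo, 5.41-fold higher in pEGFR-Hi (limma adjusted p = 4.20e-08). Timp3, an inhibitor of metalloproteases that itself binds heparan sulfate, averaged 8.31 ± 0.51 in pEGFR-Hi and 10.43 ± 0.26 in pEGFR-Lo, 4.33-fold lower (adjusted p = 3.31e-07). The other 7 genes were not called. Among 11 cytoplasmic partners, Cask, a scaffold that binds the tail of syndecans, was the gene called. It averaged 7.42 ± 0.24 in pEGFR-Hi and 9.57 ± 0.19 in pEGFR-Lo, 4.45-fold lower (adjusted p = 7.49e-10). The median difference of the 11 partners was 0.00. At an unadjusted p under 0.05 in limma 4 were lower and 4 higher, beside 19.8% and 23.0% of all genes. By less than the fold limit, Ezr (0.88, adjusted p = 3.58e-06) and Tiam1 (0.78, adjusted p = 8.51e-07) were higher and Prkca (−0.92, adjusted p = 1.14e-05) lower.

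Of 25 genes listed as heparan sulfate binding ligands and receptors, 6 were lower and 1 higher in pEGFR-Hi. Fgf1, a fibroblast growth factor that needs heparan sulfate to signal, averaged 4.59 ± 0.40 in pEGFR-Hi and 7.76 ± 0.14 in pEGFR-Lo, 9.03-fold lower (limma adjusted p = 1.72e-10). Lrrtm3, a synaptic adhesion protein, averaged 4.32 ± 0.32 in pEGFR-Hi and 7.57 ± 0.32 in pEGFR-Lo, 9.51-fold lower (adjusted p = 2.32e-10). In pEGFR-Hi it was near background, with 4 of 6 arrays above it, which limits what the size of this fold can show. Ptprd, a receptor phosphatase of the synapse, averaged 3.46 ± 0.22 in pEGFR-Hi, below background, against 6.27 ± 0.64 in pEGFR-Lo, at least 4.44-fold lower (adjusted p = 7.72e-08). Its relative Ptprs, the receptor through which heparan sulfate acts on axons, was 2.39-fold lower (adjusted p = 9.36e-08). Ptn and Hbegf were the other genes called lower and were named after their values were seen. Ptn encodes pleiotrophin, the ligand of Sdc3, and averaged 9.91 ± 0.44 in pEGFR-Hi and 11.51 ± 0.26 in pEGFR-Lo, 3.04-fold lower (adjusted p = 2.68e-06). Hbegf, a heparin-binding ligand of the EGF receptor, averaged 7.23 ± 0.31 in pEGFR-Hi and 8.58 ± 0.15 in pEGFR-Lo, 2.54-fold lower (adjusted p = 4.19e-07). Robo1, a receptor of the Slit guidance proteins, averaged 5.86 ± 0.40 in pEGFR-Hi and 4.04 ± 0.31 in pEGFR-Lo, below background, which makes it higher in pEGFR-Hi by at least 3.34-fold (adjusted p = 5.71e-07).

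Among 10 other core proteins that can carry heparan sulfate, Cd44, the hyaluronan receptor, was higher and 0 were lower. Cd44 averaged 6.32 ± 0.07 in pEGFR-Hi and 5.27 ± 0.35 in pEGFR-Lo, 2.08-fold higher in pEGFR-Hi (limma adjusted p = 9.67e-06). Its difference of 1.05 fell below the fold limit without pEGFR-Lo replicate 3 (0.99), without replicate 6 (0.96) and without both (0.85).

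The genes most like each called member over the 12 arrays were found among 13487 genes above background, by the root-mean-square difference of values centred on the mean of each gene. For Sdc2 they were Gnl3l at 0.08, Ext1 at 0.10 and Itm2c at 0.10. For Sdc3 they were 1500009C09Rik at 0.13, Sat1 at 0.18 and Ccdc184 at 0.20. For Gpc4 they were Shisa9 at 0.15, Flrt3 at 0.17 and Ptprs at 0.18. Gnl3l, 1500009C09Rik, Sat1, Ccdc184, Shisa9 and Flrt3 were all called lower in pEGFR-Hi, with differences of −1.10, −2.29, −2.41, −2.27, −1.18 and −1.24 in that order, while Itm2c missed the fold limit at −0.98. Between the members themselves the measure was 0.22 for Sdc2 and Gpc4, 0.73 for Sdc2 and Sdc3 and 0.71 for Sdc3 and Gpc4. The measure is a description over arrays that share the contrast between the groups. Genes picked as most like a member called lower are therefore lower by the way they were chosen.

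Both genes next to Sdc2 were called lower, Sema5a at −2.06 (limma adjusted p = 8.61e-05) and Cpq at −2.18 (adjusted p = 1.05e-09). Sema5a averaged 3.73 ± 0.21 in pEGFR-Hi, below background, and 5.79 ± 0.94 in pEGFR-Lo, which limits what the size of its difference can show. Of the 30 genes above background nearest to Sdc2 on chromosome 15, 6 were lower and 0 higher, with a median of −0.34. Over all genes tested, 5.06% were lower and 3.99% higher. With only genes above background tested, 977 of 13487 were lower and 783 higher. The median over all 543 such genes of chromosome 15, which also holds Ext1, was −0.27, against 0.03 over 13476 genes of all chromosomes. Around Sdc3 on chromosome 4, 0 of 30 genes were called and their median was 0.22. Its neighbours Snord85 and Laptm5 had differences of 0.36 and −0.55 and were not called, and Laptm5 was not above background. Around Gpc4 on the X chromosome, 4 of 30 genes were lower and 3 higher, with a median of 0.11. Gpc4 lies beside Gpc3, at −0.82, and 1700080O16Rik, at 0.12 and not above background. Around Sdc1, which differed in the other direction, 5 of 30 genes were lower and 1 higher, with a median of 0.06. Around Gpc3, whose window largely repeats that of Gpc4, 5 were lower and 3 higher. Around each of Sdc4, Gpc1, Gpc2, Gpc5 and Gpc6, 0 to 2 were lower and 1 was higher. The part of the lower values across chromosome 15 in the difference of Sdc2 was not tested.

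Of 11 neighbours of the other members, 1 was called, Otos beside Gpc1, at −1.17 (limma adjusted p = 3.16e-06). Over all genes, 9.05% were called. Otos averaged 3.91 in pEGFR-Hi, below background, and 5.08 in pEGFR-Lo. Of the 11, 9930038B18Rik, Rbpjl, Mir717, Mir17hg and Dct were not above background, which limits what their differences can show. Mir149, on the other side of Gpc1, was at 0.03. Pum2 and 9930038B18Rik beside Sdc1 were at 0.06 and 0.17, Rbpjl and Sys1 beside Sdc4 at −0.25 and −0.28, and Stag3 and Gm10874 beside Gpc2 at −0.26 and −0.42. Mir717 beside Gpc3 was at 0.07. Gpc5 and Gpc6 adjoin on chromosome 14, with Mir17hg at 0.05 and Dct at −0.07 on their outer sides.

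**Figure D4:**
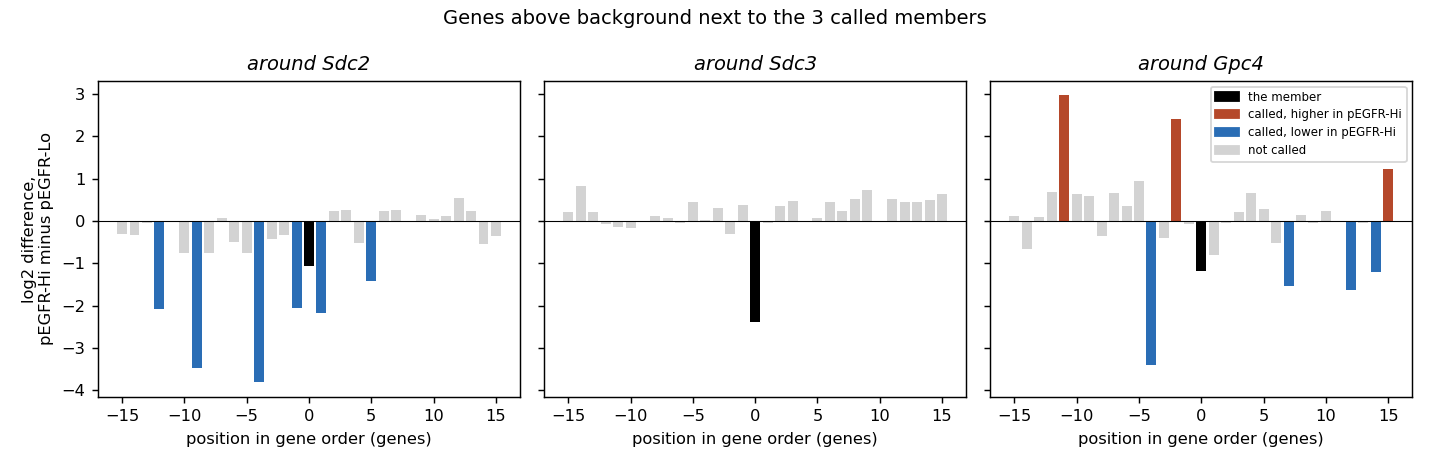
Log2 difference, pEGFR-Hi minus pEGFR-Lo (vertical axis), of the 15 genes above background on each side of Sdc2, Sdc3 and Gpc4, by position in gene order (horizontal axis), with the member in black and called genes in color. Around Sdc2, 6 genes are called lower and 0 higher, and around Sdc3, 0 are called.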

How the data were processed

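RNA of sorted tumor cells was measured on 12 arrays, grouped by the sample labels. The authors deposited log2 values made with RMA in Affymetrix Expression Console; no source used here gives its version. Of 35556 probe sets, 21789 were paired with 1 gene symbol, and 21698 of these were matched by Entrez ID to RefSeq GRCm38.p6. RefSeq served for names, gene order and promoter windows only, since no source used here states the build of the array annotation. The brightest probe set of each gene was kept. The values were fitted with limma 3.58.1 in R 4.3.3 (lmFit and eBayes, both groups, no covariate), and calls required an adjusted p under 0.01 and 2-fold. The code was tested on simulated data. "At least" folds were set against background. Members and lists were chosen with earlier results of these data known. Named genes were all members, up to 3 called genes per list and direction, the 3 genes most like each called member, and the genes beside each member. A few genes of the lists are not reported here. Alternatives included SAM, other normalizations, filters, a replicate block and leaving out arrays. The number of arrays limits the precision.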

Additional observations from a re-analysis of the deposited data

Results flagged for a closer look

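In 100 groups of 6 arrays (50 named genes), 2 arrays stood apart from the other arrays of their group by Dixon's test, for which chance gives about 1 in 20 groups. Neither gene is a syndecan, a glypican or a gene of the heparan sulfate lists. Laptm5, a lysosomal gene of leukocytes beside Sdc3, was 5.14 in pEGFR-Lo replicate 6, against 3.76 to 4.14 in the other pEGFR-Lo arrays. 9930038B18Rik, beside Sdc1, was 2.97 in pEGFR-Lo replicate 1, against 3.28 to 3.44 in the other pEGFR-Lo arrays, all below background.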

How the results depend on the processing

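Over 23 alternatives, 3 members were lower and 0 higher in pEGFR-Hi except when the adjusted p limit was 0.05 and folds of any size counted, where 6 were lower and 1 higher; that setting gave 3314 genes lower and 3871 higher of all genes and 33 lower and 16 higher of the role genes. No member reversed its direction. The members' median of −0.54 was −0.71 among genes above background, where Gpc5 drops out. Leaving out each array in turn gave 774 to 846 genes higher and 991 to 1031 lower of all genes, 0 to 0 members higher and 3 to 3 lower, 2 to 3 role genes higher and 14 to 16 lower, and a median of −0.58 to −0.49. The replicate numbers did not pair the arrays, since same-numbered arrays had correlations of deviations between −0.18 and 0.12 and 2 of 12 correlated best with their own number. With the replicate number as a block, 801 genes were higher and 1008 lower, with 0 members higher and 3 lower and a median of −0.54. Of 913 values of 40 other named genes, 898 kept their direction and side of the threshold, 4 lost their call, 7 gained one and 4 reversed. The reversed values were all of genes near 0: Mir149 at −0.04 without pEGFR-Hi replicate 2 and −0.03 without pEGFR-Lo replicate 1 (−0.04 to 0.10 over the arrays left out), Pum2 at −0.01 without pEGFR-Lo replicate 5 (−0.01 to 0.11), and Dct at 0.01 without pEGFR-Lo replicates 3 and 6. Shisa9 missed the fold limit at −0.98 without replicates 3 and 6, and Itm2c reached it without pEGFR-Hi replicate 4 (−1.01), 5 or 6. The cause of these changes was not tested. Gpc3 and Gpc5 lie near or below background, which limits what their values can show.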
